A study of Homo sapiens with 33 samples.

Results

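The response of THP-1 cells to retinoic acid and tumor necrosis factor (TNF) given together was measured against cells that received only the solvent. THP-1 is a line grown from 1 human monocytic leukaemia, so the wells differ in treatment and not in donor. The comparison takes the 5 arrays whose titles name both agents and the 6 vehicle arrays harvested at 40 h, which makes 11 of the 33 arrays of the series. In the combined group all-trans retinoic acid (RA) was given at 20 nM for 16 h and was then given again together with TNF at 5 ng/ml for 24 h. Vehicle wells received 0.1% ethanol and were harvested at the same 40 h. RA alone (5 arrays, 20 nM, re-added after 16 h) and TNF alone (5 arrays, 5 ng/ml for 24 h) were used to place the combined values. Each array held RNA from a separate culture well, so the p-values below measure the spread between wells of 1 line.

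RA enters the nucleus and binds the RA receptors (RAR), which pair with retinoid X receptors (RXR) on DNA and turn on target genes. In myeloid cells this drives maturation, and RA is used to treat acute promyelocytic leukaemia. TNF is a cytokine that binds receptors on the cell surface and releases the transcription factor NF-kB from its inhibitors. NF-kB then raises chemokines, adhesion molecules and its own inhibitors, and in monocytes TNF also leads to the expression of interferon-stimulated genes.

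Values are given on 2 scales. A level is a signal recovered from the deposited values with each array's lowest value as 1 unit, to be compared between arrays for 1 gene but not between genes. On every array 99.2% to 100% of the recovered signals below 20 units lay within 0.01 of a step of 0.1 unit, the form in which GCOS, the Affymetrix software, writes signals. A difference is a log2 difference ± standard error from a limma fit to the deposited log2 values, which are relative to each array's median. A gene was called when its Benjamini-Hochberg adjusted p over all genes tested was under 0.05. Where the dimmer group's mean lay below the median of the arrays, only the log2 estimate is printed and no fold. The arrays fall into 2 runs of record numbers, here array set 1 and array set 2. The combined group has 3 arrays in set 1 and 2 in set 2, and vehicle has 3 in each. The titles of the 3 vehicle arrays of set 2 read "Control 0 hr", and these arrays were taken here as 40 h vehicle. The 5 values listed for the combined group below are in the order of set 1 (first 3) and set 2 (last 2).

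The cells carried the markers of their line. The 8 monocytic identity markers measured were all bright enough to test, and their summed signal was 19280 to 27790 units in vehicle and 32450 to 41740 units with both agents. Of the markers of other cell types, 3 of 11 lymphocyte genes, 3 of 9 erythroid and megakaryocyte genes and 3 of 12 epithelial and fibroblast genes passed the brightness filter. Their summed signals were 331 to 810 units in vehicle and 534 to 618 units with both agents for the lymphocyte list, 322 to 479 and 267 to 475 units for the erythroid list, and 228 to 398 and 281 to 395 units for the epithelial list. NKG7, a granule gene of cytotoxic lymphocytes, was the 1 member of these lists called (log2 difference 1.14 ± 0.25, adjusted p = 0.000914). CD79A, CD79B, EPOR, GP1BA, HBB, COL1A1, KRT8 and DCN were tested and not called, with log2 differences of -0.35, -0.61, 0.36, -0.84, -0.54, -0.51, 0.27 and 0.31. Of the monocytic markers 5 were called higher, among them FCER1G, an Fc receptor signalling chain (1.59 ± 0.17, adjusted p = 3.22e-09), and AIF1, an actin-binding protein of macrophages (0.89 ± 0.18, adjusted p = 0.000201). The call of AIF1 was lost without the array set in the fit and with the mean of all probe sets of a gene. LYZ was called lower in array set 2 alone, and CST3 was called lower with the mean of all probe sets. The recovered array medians, the number of probe sets at the floor and the 3' to 5' differences of ACTB and GAPDH, which are smaller in more intact RNA, gave exact two-sided permutation p-values of 0.325 to 0.948 (adjusted over the 4 tests 0.848 to 0.948, with 0.00216 the smallest possible raw value). The log2 ACTB difference was 0.791 ± 0.283 in the combined group (SD, n = 5) and 1.085 ± 0.530 in vehicle (SD, n = 6). Its means were 0.989 and 1.445 in array set 1, and 0.494 and 0.724 in set 2, so it was lower with both agents in each set. The permutations took all 11 arrays together without regard to the array set. The spread between the sets therefore entered these p-values, and they do not show that RNA quality was matched. The part of these measures and of the marker sums in the results was not tested.

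RA and TNF together changed a wide part of the transcriptome. Of 12393 genes tested, 1445 were higher than in vehicle, which is 11.7% of them, and 919 were lower, which is 7.42%. These 2 shares are the background for the counts of list members called against vehicle, unless another setting is named. At least a 2-fold difference was reached by 672 of the higher and 385 of the lower genes. All 5 combined arrays lay above all 6 vehicle arrays for 719 genes (5.8%) and below them for 361 (2.91%). Of all calls, 61.1% were rises, but 44.3% were after quantile normalization and 44.5% on the recovered signals without centring, where 1498 and 1520 genes were higher and 1887 and 1898 lower. The median log2 difference of all genes tested moved from 0.05 to -0.06 on the recovered signals. The number of falls therefore depends on the scaling, and the brightness filter lets a gene through if the treated arrays alone are bright. Among the called rises, 140 had a vehicle mean below the array median. In bulk RNA a change in the share of cells of a kind and a change of RNA per cell cannot be told apart.

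**Figure D1:**
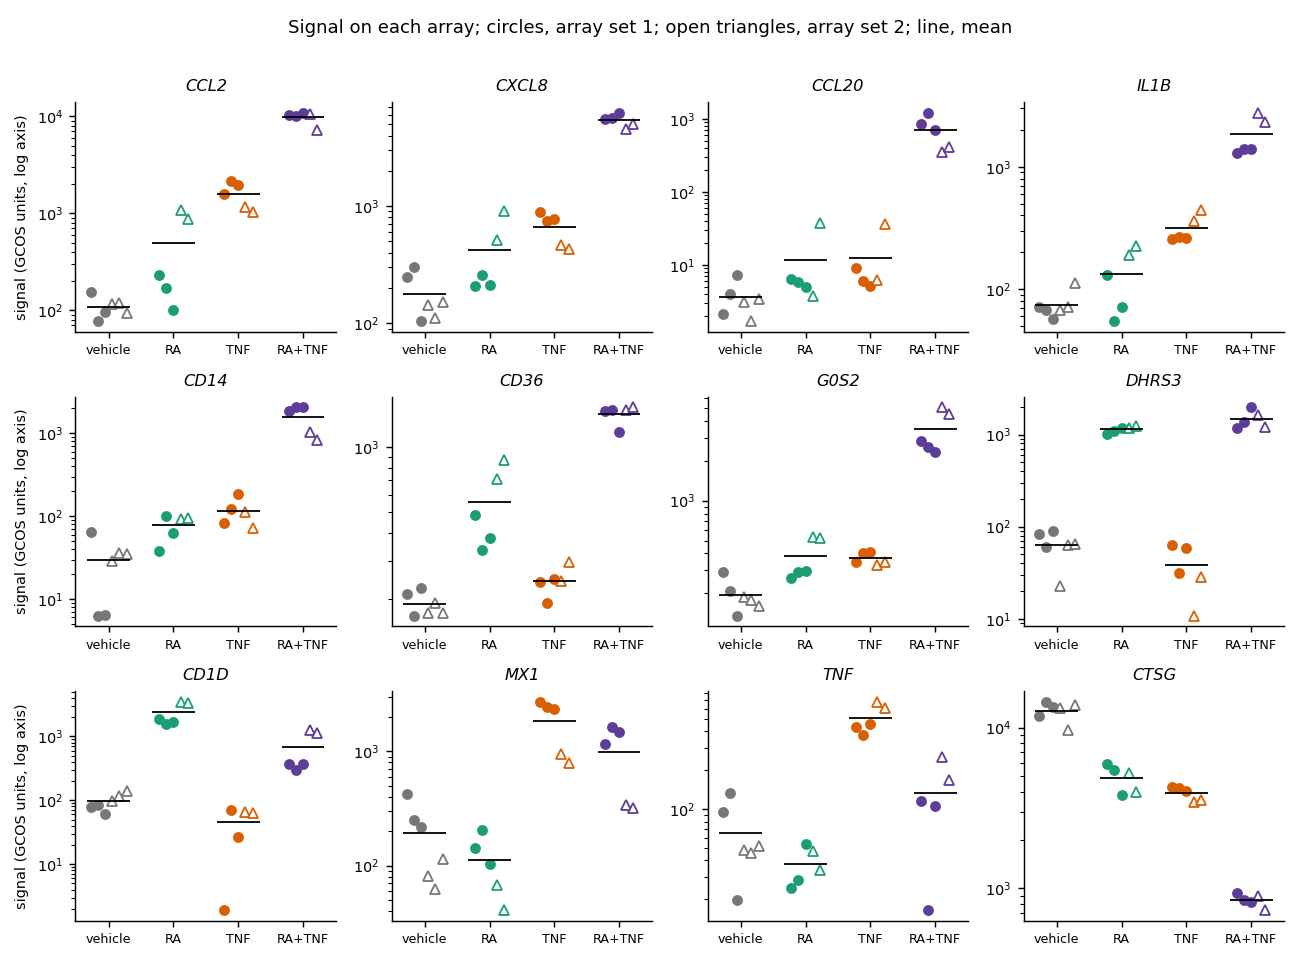
Signal of 12 genes on each of the 21 arrays harvested at 40 h, in recovered GCOS signal units on a log axis, by treatment (vehicle, RA, TNF, RA plus TNF). Circles are arrays of set 1, open triangles arrays of set 2, and lines are group means: CCL2, CXCL8, CCL20, IL1B, CD14 and G0S2 have their highest group mean with both agents, and CTSG its lowest.

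Genes of the retinoid pathway that passed the test were all higher. Of 24 listed genes 16 were bright enough to test, 8 were higher and 0 lower, beside 11.7% and 7.42% of all genes, with a median log2 difference of 1.17 against 0.05 over all genes. DHRS3, which encodes a retinaldehyde reductase that returns retinal to retinol, had signals of 1190, 1369, 1986, 1624 and 1215 units in the combined group. In vehicle it ran from 22.6 to 90.2 units (median 63.4). The groups lay far apart, with a 25.6-fold difference (log2 4.68 ± 0.30, adjusted p = 7.00e-15). Its level with RA alone was 1140 ± 85.0 units (SD, n = 5) and with TNF alone 38.4 ± 21.8 units (SD, n = 5). The combined value differed from TNF alone (log2 5.55 ± 0.31, adjusted p = 2.04e-15), and against RA alone the difference was 0.43 ± 0.31 (adjusted p = 0.443).

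CD38, an ectoenzyme that hydrolyses NAD and a known RA target in myeloid cells, reached 1308, 1380, 1248, 1735 and 1443 units. Vehicle arrays ran from 105 to 210.1 units (median 173). Every combined array was above every vehicle array (10.1-fold, log2 3.33 ± 0.18, adjusted p = 1.06e-16), and the difference from RA alone was 0.05 ± 0.19 on the log2 scale (adjusted p = 0.919). HIC1, a zinc finger repressor, TGM2, a transglutaminase, and STRA6, a membrane receptor for retinol-binding protein, differed from vehicle by 4.86 ± 0.56, 2.58 ± 0.65 and 2.06 ± 0.64 on the log2 scale (adjusted p = 1.31e-08, 0.00314 and 0.0195). The call of STRA6 was lost without vehicle replicate 6 or without combined replicate 4 (adjusted p = 0.0554 to 0.0555). ASB2, a subunit of a ubiquitin ligase, and NRIP1, a corepressor of nuclear receptors, were also higher than with RA alone. For ASB2 the difference from RA alone was 2.57 ± 0.39 (adjusted p = 7.26e-06), and for NRIP1 it was 0.92 ± 0.18 (adjusted p = 0.000336). ALDH1A1, which makes RA from retinal, rose by 3.45 ± 0.93 (adjusted p = 0.00631), with 3.61 ± 0.93 for TNF alone and 0.54 ± 0.93 for RA alone against vehicle. TGM2, STRA6 and ALDH1A1 were not called in array set 1 alone, and STRA6 was not called in set 2 alone. The receptors RARA, RXRA, RXRB and RARG were not called, with log2 differences of 0.01, -0.19, -0.33 and -0.10. CYP26A1 and CYP26B1, the RA-degrading hydroxylases, and RARB, a classical RA target, were too dim to test, with means of 19.3 ± 13.1, 22.1 ± 19.6 and 18.5 ± 13.5 units in the combined group (SD, n = 5).

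On the TNF side, 17 of 20 tested genes of the NF-kB list were higher and 0 were lower, with a median log2 difference of 1.83. The inhibitor NFKBIA, which holds NF-kB in the cytoplasm and is itself a target of it, had signals of 10380, 10730, 11100, 5781 and 5103 units against 621 to 1680 units (median 921) in vehicle. The groups did not overlap (8.9-fold, log2 3.15 ± 0.17, adjusted p = 9.70e-17). TNFAIP3, a ubiquitin-editing enzyme that limits NF-kB signalling, was at 3517, 3616, 3435, 2569 and 2976 units and in vehicle at 200.2 to 302 units (median 228). It was 14.1-fold higher without overlap (log2 3.82 ± 0.17, adjusted p = 1.47e-18). Neither inhibitor was called against TNF alone, where the differences were 0.18 ± 0.18 for NFKBIA and 0.13 ± 0.18 for TNFAIP3 (adjusted p = 0.68 and 0.784). Of the subunits, NFKB1 rose by 1.27 ± 0.17, NFKB2 by 2.95 ± 0.42, RELB by 2.33 ± 0.23 and REL by 0.56 ± 0.16 (adjusted p = 3.69e-07, 9.26e-07, 5.24e-10 and 0.0104). RELA, the main transactivating subunit, was at 0.14 ± 0.18 (adjusted p = 0.668).

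Against TNF alone, 4 of the 20 genes of the NF-kB list were higher, beside 4.6% of all genes, and 0 were lower, beside 2.69%. They were ICAM1, BCL2A1, IER3 and SOD2. ICAM1, the adhesion molecule that binds leukocyte integrins, had signals of 1048, 957, 976, 2037 and 1454 units with both agents. Signals on the vehicle arrays were 5.60 to 64.4 units (median 25.1), without overlap. The log2 difference was 6.05 ± 0.36 from vehicle (adjusted p = 1.57e-15) and 1.21 ± 0.38 from TNF alone (adjusted p = 0.0416). BCL2A1, an antiapoptotic member of the BCL2 family, differed by 5.33 ± 0.29 from vehicle and by 1.60 ± 0.30 from TNF alone (adjusted p = 1.06e-16 and 0.000299). IER3, an immediate early gene, and SOD2, the mitochondrial superoxide dismutase, were 2.11 ± 0.41 and 1.12 ± 0.29 above TNF alone (adjusted p = 0.000506 and 0.0112). Against RA alone 15 of the 20 were higher and 0 lower, where 7.63% of all genes were higher and 4.55% lower.

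TNF itself did not pass the test. Its signals were 116, 16.4, 106, 253 and 169 units with both agents and 19.7 to 134 units (median 49.9) in vehicle, and the groups overlapped (log2 0.98 ± 0.46, adjusted p = 0.143). TNF alone gave 509 ± 128 units (SD, n = 5), and the log2 difference of the combined value from it was -2.29 ± 0.48 (adjusted p = 0.00112). The 2 array sets gave different estimates, 0.03 ± 0.64 in set 1 and 2.15 ± 0.30 in set 2, and that difference was not called (adjusted p = 0.501). Of the receptors, TNFRSF1B was higher (log2 1.29 ± 0.18, adjusted p = 1.18e-06) and TNFRSF1A was at -0.06 ± 0.16 (adjusted p = 0.845).

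Promoters of the genes that rose were searched for letters that resemble the binding sites of these factors, in 300 bases from 250 before to 50 after the RefSeq gene start (GRCh38.p14), on both strands. The NF-kB motif GGGANNNNCC was found in 9 of the 14 promoters on hand for the 17 NF-kB list genes that rose, or 64.3%, against 25.1% of all 27305 promoters and 30.6% of the promoters of genes tested. It was in 400 of the 1177 promoters on hand for the called rises, or 34%, and in 229 of the 744 on hand for the called falls, or 30.8%. The interferon response motif GAAANNGAAA was in 16 of 26 promoters of the interferon genes that rose, or 61.5%, against 3.65% of all promoters, 2.83% of those of genes tested and 6.12% of those of the called rises. A direct repeat of 2 retinoid half-sites spaced by 5 bases was in 0.168% of all promoters, 0.129% of those of genes tested and 1 promoter of the called rises. The AP-1 motif TGANTCA was in 7.76% of all promoters, 4.61% of those of genes tested and 6.29% of those of the called rises. A match describes letters and is not a binding site. The promoters of CCL20, NFKBIA and CXCL10 are shown because these genes stand for 3 patterns: a rise called with both agents and with neither alone, a rise not called against TNF alone, and a rise whose promoter holds both motifs. Capitals mark the matches, which read GGNNNNTCCC where the NF-kB motif lies on the opposite strand, and all run 5′ to 3′ on the gene's strand. CCL20 lies on the plus strand at chr2:227813592-227813891, and NFKBIA and CXCL10 lie on the minus strand at chr14:35404700-35404999 and chr4:76023448-76023747.
CCL20: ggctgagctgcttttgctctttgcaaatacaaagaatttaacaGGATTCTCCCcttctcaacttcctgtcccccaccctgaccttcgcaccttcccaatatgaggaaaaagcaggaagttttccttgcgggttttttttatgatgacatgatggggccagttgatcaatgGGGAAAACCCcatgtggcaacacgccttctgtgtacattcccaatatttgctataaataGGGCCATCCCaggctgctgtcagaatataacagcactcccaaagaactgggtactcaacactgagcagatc
NFKBIA: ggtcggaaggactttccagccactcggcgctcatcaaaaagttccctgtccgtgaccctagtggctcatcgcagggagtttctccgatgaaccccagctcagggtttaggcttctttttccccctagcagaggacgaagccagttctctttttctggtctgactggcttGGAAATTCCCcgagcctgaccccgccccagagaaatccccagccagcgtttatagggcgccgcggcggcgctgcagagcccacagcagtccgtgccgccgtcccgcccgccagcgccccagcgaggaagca
CXCL10: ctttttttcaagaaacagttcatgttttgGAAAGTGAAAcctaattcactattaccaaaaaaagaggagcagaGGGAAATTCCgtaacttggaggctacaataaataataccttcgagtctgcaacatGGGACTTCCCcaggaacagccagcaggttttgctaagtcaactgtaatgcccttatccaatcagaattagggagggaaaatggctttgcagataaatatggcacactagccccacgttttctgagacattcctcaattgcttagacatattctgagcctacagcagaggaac
CCL20 held 3 NF-kB matches, which begin 207, 80 and 21 bases before the start, and NFKBIA held 1, at 81. CXCL10 held 2 NF-kB matches, at 177 and 122, and 1 interferon match at 221.

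Chemokines, the secreted proteins that attract leukocytes, gave some of the widest differences. Of 22 listed, 12 were bright enough to test, 9 were higher and 0 lower, beside 11.7% and 7.42% of all genes. The median log2 difference was 3.38. CCL2, which attracts monocytes, had signals of 10330, 10100, 10940, 10570 and 7186 units with both agents. The range in vehicle was 77.4 to 153 units (median 105). The groups were 101-fold apart (log2 6.66 ± 0.36, adjusted p = 1.24e-16), and CCL2 was above TNF alone by 2.75 ± 0.38 and above RA alone by 4.97 ± 0.38 (adjusted p = 2.02e-06 and 2.55e-12). CXCL8, the neutrophil attractant interleukin-8, reached 5484, 5662, 6286, 4551 and 4991 units. Its vehicle arrays ran from 104 to 301 units (median 148). It was 35.2-fold higher (log2 5.14 ± 0.33, adjusted p = 7.00e-15), and its level was 420 ± 299 units with RA alone and 663 ± 205 units with TNF alone (SD, n = 5 each).

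CCL20, the ligand of CCR6, was the chemokine whose promoter is shown first above. Its signals were 844, 1219, 692, 347 and 406 units with both agents. The vehicle arrays lay far lower, from 1.70 to 7.30 units (median 3.25). The log2 difference was 7.74 ± 0.87 (adjusted p = 8.04e-09), against 1.29 ± 0.87 for RA alone and 1.57 ± 0.87 for TNF alone, neither of which was called (adjusted p = 0.6 and 0.286). CCL4, an attractant of monocytes and T cells, had signals of 1248, 1461, 1565, 442 and 402 units against 3.50 to 25.5 units (median 4.45) in vehicle (log2 7.12 ± 0.50, adjusted p = 8.29e-14), with the set 2 arrays lowest in the combined group. CXCL10, an attractant of activated T cells, had signals of 1016, 818, 903, 371 and 256 units against 3.00 to 45.9 units (median 7.35) in vehicle (log2 6.08 ± 0.51, adjusted p = 7.61e-12). Its mean with TNF alone was 1768 ± 709 units (SD, n = 5), and the combined value was not called against it (log2 -1.41 ± 0.53, adjusted p = 0.109). CXCL1, a neutrophil attractant, was called against vehicle at 1.65 ± 0.56 (adjusted p = 0.0341), but not without vehicle replicate 1, 5 or 6 or without combined replicate 1, 2, 4 or 5 (adjusted p = 0.05 to 0.0756). CCL5, an attractant of T cells, was higher by 1.88 ± 0.20 (adjusted p = 2.87e-09). CCL22 and CCL23 had log2 differences of -0.56 and -0.39 and were not called. For CCL2, CXCL8, CCL20, CCL4 and CXCL10 the combined and vehicle arrays did not overlap, and CCL23 was called lower after quantile normalization and on the recovered signals.

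Among 15 tested cytokines and cytokine antagonists 8 were higher and 1 was lower, beside 11.7% and 7.42% of all genes. IL1B, the inflammatory cytokine interleukin-1 beta, had signals of 1288, 1394, 1384, 2774 and 2333 units with both agents. Without the agents it was 57.1 to 112 units (median 69.0). The difference was 27.4-fold (log2 4.78 ± 0.24, adjusted p = 2.40e-17), and IL1B was 2.56 ± 0.25 above TNF alone on the log2 scale (adjusted p = 1.30e-09). EBI3, the shared subunit of interleukins 27 and 35, reached 667, 594, 575, 306 and 308 units against 1.80 to 29.1 units (median 10.1) in vehicle (log2 5.91 ± 0.58, adjusted p = 3.97e-10). The groups of IL1B and EBI3 did not overlap. EBI3, IL32 and VEGFA were not called against TNF alone, with differences of 0.51 ± 0.60, -0.11 ± 0.64 and -0.02 ± 0.34. IL1RN, the interleukin-1 receptor antagonist, was at 0.63 ± 0.23 (adjusted p = 0.0494), and this call was lost without vehicle replicate 2, 3, 4 or 6 or without combined replicate 1, 2, 3 or 5 (adjusted p = 0.0591 to 0.126). TNFSF10, the death ligand TRAIL, was the 1 member called lower (log2 -1.32 ± 0.26, adjusted p = 0.000231), a call lost in array set 1 alone. IL6, IL10 and IL12B were too dim to test, with combined means of 32.7 ± 29.1, 2.36 ± 0.94 and 20.0 ± 7.96 units (SD, n = 5).

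Most interferon-stimulated genes were higher. All 39 measured members were bright enough to test, 34 were higher and 0 lower, with a median log2 difference of 1.44. MX1, an antiviral GTPase, had signals of 1155, 1622, 1477, 339 and 319.6 units with both agents. Its vehicle signals were 62.8 to 426 units (median 167), so the groups overlapped, with the set 2 arrays of the combined group lowest. With the array set in the fit the log2 difference was 2.28 ± 0.21 (adjusted p = 6.73e-11), and within the sets it was 2.44 ± 0.27 and 2.03 ± 0.27. The oligoadenylate synthetases OAS1, OAS2 and OAS3, which activate RNA decay, were higher by 1.65 ± 0.23, 2.15 ± 0.21 and 2.11 ± 0.23 (adjusted p = 7.56e-07, 4.28e-10 and 3.43e-09). IFIT1, ISG15 and IFI44 were higher by 2.39 ± 0.33, 1.65 ± 0.24 and 3.66 ± 0.62 (adjusted p = 5.06e-07, 1.22e-06 and 2.18e-05).

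Set directly against TNF alone, 8 of the 39 interferon genes were lower and 1 was higher, beside 2.69% and 4.6% of all genes. The lower genes were MX1, OAS2, TRIM22, ISG15, USP18, IRF7, SAMD9L and XAF1, of which XAF1 was not called against vehicle. The log2 difference from TNF alone was -0.99 ± 0.22 for MX1, -1.15 ± 0.24 for USP18 and -1.38 ± 0.23 for IRF7 (adjusted p = 0.00201, 0.00133 and 5.24e-05). IRF7 is the interferon regulatory factor that drives interferon alpha genes, and USP18 is a protease that removes ISG15. IRF1, a regulator that binds interferon response elements, was the gene that was higher, by 1.19 ± 0.19 (adjusted p = 1.67e-05). Its difference from vehicle was 1.40 ± 0.18 with both agents, 1.49 ± 0.18 with RA alone and 0.21 ± 0.18 with TNF alone. Against vehicle the call of IRF7 was lost without vehicle replicate 3 or without combined replicate 1 (adjusted p = 0.0606 to 0.087), and that of SAMD9L without vehicle replicate 3, 4 or 5 or without combined replicate 1, 2 or 3 (adjusted p = 0.055 to 0.139). Against RA alone, 32 of the 39 were higher and 0 lower, beside 7.63% and 4.55% of all genes.

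Receptors of monocytes and macrophages were higher for 13 of 22 tested genes and lower for 2, beside 11.7% and 7.42% of all genes. CD14, the coreceptor for lipopolysaccharide, had signals of 1852, 2065, 2058, 1022 and 827 units with both agents. In vehicle it ran from 6.30 to 63.9 units (median 31.8). The groups lay apart by a log2 difference of 6.22 ± 0.44 (adjusted p = 8.29e-14), with levels of 77.9 ± 26.9 units for RA alone and 114 ± 43.5 units for TNF alone (SD, n = 5 each). CD36, a scavenger receptor that takes up oxidised lipoproteins, was at 1453, 1478, 1163, 1479 and 1520 units and in vehicle at 167 to 224 units (median 183). No arrays of the groups overlapped, and CD36 was 8.23-fold higher (log2 3.04 ± 0.21, adjusted p = 5.95e-14). CCR1, a receptor of CCL5, rose by 2.14 ± 0.20 (adjusted p = 6.97e-11). CSF1R, the receptor for macrophage colony-stimulating factor, SIRPA, an inhibitory receptor for CD47, and the integrin subunit ITGAM rose by 1.64 ± 0.17, 1.50 ± 0.19 and 1.21 ± 0.17 (adjusted p = 7.60e-10, 1.77e-07 and 5.93e-07). TLR8 and TLR2, which sense single-stranded RNA and bacterial lipoproteins, rose by 3.80 ± 0.61 and 0.95 ± 0.18 (adjusted p = 8.82e-06 and 8.77e-05). CCR2, the receptor of CCL2, was higher than vehicle by 0.84 ± 0.16 and lower than with RA alone, with a log2 difference of -0.55 ± 0.17 (adjusted p = 0.000137 and 0.0225). The 2 falls were FCGR2A, an Fc receptor for IgG (-1.51 ± 0.19, adjusted p = 6.94e-08), and CX3CR1, the fractalkine receptor (-1.19 ± 0.18, adjusted p = 3.42e-06). With the mean of all probe sets of a gene, FCGR2A, CX3CR1 and ITGAM were not called. CD163 and MRC1 were too dim to test.

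Antigen presentation genes were higher for 15 of 22 tested members and lower for 0, beside 11.7% and 7.42% of all genes. HLA-DRA and HLA-DPA1, chains of class II molecules, and CD74, their invariant chain, rose by 2.88 ± 0.26, 1.98 ± 0.23 and 1.81 ± 0.19 (adjusted p = 3.66e-11, 1.70e-08 and 1.21e-09), although class II genes are close relatives whose probe sets can share signal. The call of CD74 was lost with the mean of all probe sets of a gene. CIITA, the transactivator of class II genes, was too dim to test. TAP1, a peptide transporter of the class I pathway, rose by 1.41 ± 0.19 and HLA-F, a nonclassical class I molecule, by 1.19 ± 0.15 (adjusted p = 4.26e-07 and 1.16e-07). CD1D, which presents lipids to natural killer T cells, had signals of 371, 302, 366, 1255 and 1126 units, with both set 2 arrays above all set 1 arrays. Vehicle arrays ran from 60.8 to 142 units (median 90.9). It was 7.18-fold above vehicle without overlap (log2 2.84 ± 0.44, adjusted p = 4.90e-06). RA alone gave 2399 ± 951 units and TNF alone 45.7 ± 30.1 units (SD, n = 5 each), and the log2 difference of the combined value from RA alone was -1.91 ± 0.46 (adjusted p = 0.00314).

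Genes of microbial killing and of the lysosome were higher for a part of their lists. CYBB, the catalytic subunit of the phagocyte NADPH oxidase, had signals of 1814, 1763, 1499, 2047 and 1580 units against 53.5 to 115 units (median 83.9) in vehicle. Both groups stayed apart (23.9-fold, log2 4.58 ± 0.23, adjusted p = 1.99e-17). NCF1 and NCF4, cytosolic subunits of the same enzyme, were higher by 3.67 ± 0.22 and 0.75 ± 0.16 (adjusted p = 1.57e-15 and 0.000739), and NCF1 has near-identical pseudogenes that its probe set may also detect. FGR, a SRC family kinase of phagocytes, was higher by 2.32 ± 0.21 (adjusted p = 3.41e-11). CYBA, RAC2, LYZ and SLC11A1 were not called, which left 4 of 8 tested genes higher and 0 lower. RAC2 was called lower without vehicle replicate 3, without combined replicate 1, after quantile normalization and on the recovered signals. Of 25 lysosomal genes 14 were higher and 0 lower than vehicle, beside 11.7% and 7.42% of all genes. Against TNF alone 13 were higher and 0 lower, beside 4.6% and 2.69% of all genes. PSAP, the precursor of the saposins that help degrade sphingolipids, was at 18590, 19020, 19020, 13060 and 9864 units and in vehicle at 2000 to 4062 units (median 2457). The groups did not overlap. PSAP was 6.4-fold above vehicle and 1.83 ± 0.18 above TNF alone on the log2 scale (adjusted p = 1.17e-14 and 1.68e-09). The proteases CTSB, CTSD and CTSH were higher by 2.16 ± 0.18, 2.13 ± 0.21 and 2.74 ± 0.17 (adjusted p = 1.03e-11, 5.83e-10 and 3.79e-15). For CTSB the single agents gave 0.75 ± 0.18 with RA and -0.02 ± 0.18 with TNF, and for CTSH they gave -0.26 ± 0.17 and 2.30 ± 0.17. The membrane proteins LAMP1, LAMP2 and SCARB2 were not called, and TPP1, a peptidase, was called lower after quantile normalization and on the recovered signals.

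Complement and matrix genes were higher for a part of their lists too. Of 14 tested complement genes 6 were higher and 0 lower: the component C3 (3.28 ± 0.45), the receptors C3AR1 (3.28 ± 0.42) and C5AR1 (2.61 ± 0.36), properdin, CFP (1.96 ± 0.24), C1QA (3.33 ± 0.78) and the inhibitor CD59 (1.07 ± 0.25). Their adjusted p-values were 5.63e-07, 1.21e-07, 5.28e-07, 6.83e-08, 0.00165 and 0.00177. C1QA was not called in array set 1 alone, and CD59 was not called in set 2 alone. CFD, complement factor D, was called lower after quantile normalization. Of 15 matrix proteases and inhibitors 7 were higher and 1 lower. MMP9, gelatinase B, had signals of 3686, 3761, 2880, 2371 and 1766 units against 53.0 to 180 units (median 146) in vehicle (24.9-fold, log2 4.64 ± 0.27, adjusted p = 1.13e-15). MMP2, gelatinase A, had 1247, 967, 1134, 2007 and 1877 units against 69.8 to 92.3 units (median 76.2) (19.6-fold, log2 4.29 ± 0.22, adjusted p = 5.61e-17). For both the groups lay apart, but the single agents differed: MMP9 was 3.72 ± 0.27 with TNF and 0.24 ± 0.27 with RA, and MMP2 was 0.77 ± 0.22 with TNF and 2.55 ± 0.22 with RA. ADAMDEC1, a disintegrin metalloprotease of macrophages and dendritic cells, had 1974, 1483, 1787, 1189 and 1076 units, and its vehicle arrays, from 2.00 to 34.6 units (median 23.1), were all lower (log2 6.64 ± 0.42, adjusted p = 8.26e-15). PLAUR, the urokinase receptor, was higher by 2.90 ± 0.20 and PLAU, urokinase, was lower, with a log2 difference of -0.90 ± 0.26 (adjusted p = 7.42e-14 and 0.011). The inhibitors TIMP1, TIMP2 and TIMP3 were not called, and TIMP2 was called lower after quantile normalization and on the recovered signals.

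Genes of lipid handling were higher for 11 of 19 tested members and lower for 2. G0S2, an inhibitor of adipose triglyceride lipase, had signals of 2803, 2548, 2349, 5092 and 4501 units, with both set 2 arrays highest. Signals on the vehicle arrays were 135 to 289 units (median 182). The groups lay apart, and G0S2 was 19.4-fold higher (log2 4.28 ± 0.22, adjusted p = 5.61e-17). ACSL1, which activates fatty acids, and APOC1, an apolipoprotein, rose by 2.63 ± 0.23 and 1.93 ± 0.18 (adjusted p = 2.32e-11 and 1.93e-10). The nuclear receptors PPARG and NR1H3, which control lipid uptake and cholesterol efflux, rose by 1.90 ± 0.28 and 1.35 ± 0.22, and the fatty acid binding protein FABP4 by 2.80 ± 0.66 (adjusted p = 2.04e-06, 9.37e-06 and 0.00167). PPARG gave 1.89 ± 0.28 with RA alone and -0.05 ± 0.28 with TNF alone. CPT1A, which admits fatty acids to mitochondria, and PDK4, which restrains pyruvate oxidation, were the 2 falls (-2.00 ± 0.19 and -2.36 ± 0.58, adjusted p = 2.80e-10 and 0.00258). Of 11 tested genes of prostaglandin and leukotriene synthesis 7 were higher and 1 lower. PTGES, the inducible prostaglandin E synthase, had signals of 396, 559.9, 510.2, 565 and 509 units against 1.10 to 38.0 units (median 7.60) in vehicle (log2 6.62 ± 0.67, adjusted p = 7.03e-10), without overlap. RA alone gave 5.27 ± 0.67. PTGS1, cyclooxygenase-1, was higher by 1.03 ± 0.15 (adjusted p = 1.89e-06). ALOX5AP, the partner protein of 5-lipoxygenase, was higher by 3.32 ± 0.20 and LTC4S, leukotriene C4 synthase, lower, with a log2 difference of -2.01 ± 0.26 (adjusted p = 2.67e-15 and 2.44e-07). PTGS2, cyclooxygenase-2, was too dim to test at 28.3 ± 15.2 units (SD, n = 5). Of 12 genes of sterol synthesis 4 were called higher: HMGCS1 (0.81 ± 0.20), SQLE (0.66 ± 0.19), SC5D (0.52 ± 0.17) and DHCR7 (0.59 ± 0.21). HMGCS1 was the 1 gene called in array set 1 alone and without combined replicate 1. HMGCS1 and SQLE were the 2 called in set 2 alone, without vehicle replicate 3, 4 or 6 and without combined replicate 3. The call of DHCR7 was lost without vehicle replicate 2, 3, 4, 5 or 6 or without combined replicate 1, 2, 3 or 5 (adjusted p = 0.0549 to 0.125), and that of SC5D without vehicle replicate 3, 4 or 6 or without combined replicate 1 or 3 (adjusted p = 0.0551 to 0.0833).

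Genes of tryptophan and amino acid breakdown were higher for 4 of 8 tested members and lower for 0. IL4I1, an L-amino acid oxidase, had signals of 1163, 1318, 1228, 1162 and 1125 units with both agents. The range in vehicle was 3.50 to 42.6 units (median 10.2). No arrays of the groups overlapped. The log2 difference was 6.68 ± 0.46 (adjusted p = 5.95e-14), and against TNF alone it was 0.84 ± 0.48 (adjusted p = 0.378). The tryptophan tRNA ligase WARS1 rose by 2.41 ± 0.27, kynureninase, KYNU, by 0.78 ± 0.17 and KMO, kynurenine monooxygenase, by 0.73 ± 0.24 (adjusted p = 1.12e-08, 0.000825 and 0.0324), and the KMO call was lost without vehicle replicate 3, 4 or 6 or without combined replicate 1 or 3 (adjusted p = 0.0516 to 0.147). IDO1 was at 0.11 ± 0.71 and was not called (adjusted p = 0.945). Of 13 genes of oxidative stress defence 7 were higher and 0 lower, among them HMOX1, heme oxygenase 1 (2.62 ± 0.53, adjusted p = 0.000247), NQO1, a quinone reductase (1.29 ± 0.17, adjusted p = 3.28e-07), PRDX1, a peroxiredoxin (1.10 ± 0.16, adjusted p = 2.04e-06), and TXNRD1, thioredoxin reductase (0.91 ± 0.15, adjusted p = 2.14e-05). With the mean of all probe sets the count was 3, and TXNRD1 was at -0.32.

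**Figure D2:**
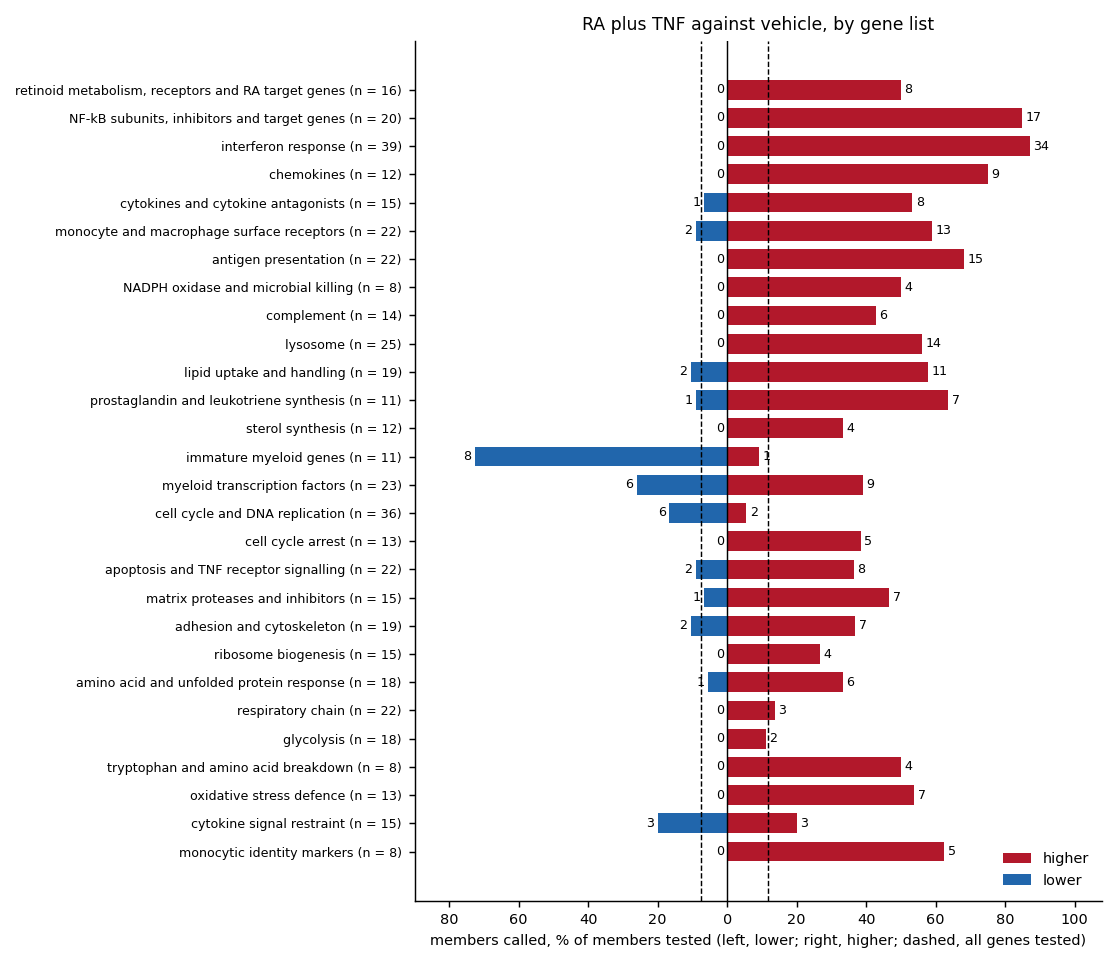
Share of the tested members of 28 gene lists that were called higher (red, to the right) or lower (blue, to the left) with RA plus TNF against vehicle, in % of the members tested, with the number called beside each bar. Dashed lines give the shares over all genes, 11.7% higher and 7.42% lower; the interferon list reaches 34 of 39 higher and the immature myeloid list 8 of 11 lower.

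Most tested genes of immature myeloid cells fell. Of 11 tested members 8 were lower and 1 higher, with a median log2 difference of -1.25. CTSG, cathepsin G of the primary granules, had signals of 939.7, 841, 817, 898 and 729 units with both agents. Without the agents it was 9628 to 14500 units (median 13410). Both groups stayed apart, and CTSG was 14.1-fold lower (log2 -3.81 ± 0.15, adjusted p = 3.52e-20), with -1.38 ± 0.15 for RA alone and -1.67 ± 0.15 for TNF alone. MS4A3, a membrane protein of granulocyte and monocyte progenitors, had 117, 174, 115, 80.6 and 48.8 units against 1124 to 1472 units (median 1419) in vehicle (13.1-fold lower without overlap, log2 -3.71 ± 0.20, adjusted p = 1.24e-16). The granule proteases PRTN3 and ELANE and the progenitor factor MYB fell, with log2 differences of -1.96 ± 0.18, -1.36 ± 0.14 and -1.25 ± 0.14 (adjusted p = 1.61e-10, 6.66e-10 and 1.47e-08). RNASE2, AZU1 and SERPINB10 were the other falls. MPO, myeloperoxidase, was at -1.08 ± 0.67 and was not called (adjusted p = 0.294). FLT3, a receptor kinase of progenitors, was the 1 rise (1.42 ± 0.24, adjusted p = 1.93e-05), and it was 2.62 ± 0.24 with RA alone. The call of FLT3 against vehicle was lost in array set 2 alone.

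Other large falls were of genes with varied roles, and for each gene given array by array here the groups did not overlap. MSRB3, a methionine sulfoxide reductase, had signals of 26.0, 51.4, 7.70, 8.70 and 2.20 units with both agents against 133 to 392 units (median 219) in vehicle (log2 -4.27 ± 0.40, adjusted p = 1.19e-10). CAV1, the coat protein of caveolae, had 96.8, 106, 109.5, 12.5 and 20.3 units against 649 to 972 units (median 705) in vehicle (log2 -3.98 ± 0.27, adjusted p = 5.95e-14). The set 2 arrays of CAV1 were lowest, and its difference was -2.90 ± 0.25 in set 1 and -5.37 ± 0.28 in set 2. F13A1, the A subunit of coagulation factor XIII, had 31.8, 25.1, 4.30, 30.8 and 20.3 units against 154 to 290.2 units (median 250.5) in vehicle (log2 -3.52 ± 0.42, adjusted p = 2.91e-08). DEPTOR, an inhibitor of the kinase mTOR, had 39.7, 33.4, 25.6, 79.8 and 48.2 units against 312 to 476 units (median 378) in vehicle (8.35-fold lower, log2 -3.06 ± 0.24, adjusted p = 1.02e-12). KALRN, a guanine nucleotide exchange factor, ONECUT2, a homeobox factor, CNR1, the cannabinoid receptor, and MLC1, a membrane protein of astrocytes, fell, with log2 differences of -3.10 ± 0.49, -3.01 ± 0.39, -2.84 ± 0.29 and -2.82 ± 0.19 (adjusted p = 8.41e-06, 2.15e-07, 1.16e-09 and 1.59e-14). MIR1915HG, the host gene of a microRNA, and MROCKI, a long noncoding RNA, were at -2.82 ± 0.25 and -3.25 ± 0.47 (adjusted p = 3.47e-11 and 1.29e-06).

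IGFBP3 and THBS1 stood beside the chemokines among the largest rises, and their groups did not overlap. IGFBP3, which binds insulin-like growth factors, had signals of 4908, 5268, 5297, 2133 and 1954 units with both agents. Its vehicle signals were 4.50 to 51.0 units (median 19.2). The log2 difference was 7.86 ± 0.43 (adjusted p = 1.06e-16), and it was 7.79 ± 0.43 with TNF alone and -0.76 ± 0.43 with RA alone. THBS1, the matrix glycoprotein thrombospondin 1, had 149, 154, 359.5, 634 and 871 units against 1.10 to 6.20 units (median 2.65) in vehicle, with the set 2 arrays highest (log2 7.24 ± 0.75, adjusted p = 1.55e-09). It was 4.76 ± 0.75 with RA alone and 1.84 ± 0.75 with TNF alone. Of 19 adhesion and cytoskeleton genes 7 were higher and 2 lower, or 5 lower after quantile normalization and on the recovered signals, with ITGA5, LMNA and LMNB1 added. ITGA6 and ITGB2, integrin subunits, rose by 3.63 ± 0.38 and 1.23 ± 0.17, and SELPLG, the ligand of P-selectin, fell, with a log2 difference of -1.48 ± 0.19 (adjusted p = 1.44e-09, 6.49e-07 and 1.53e-07). VIM, vimentin, had signals of 2306, 2247, 2032, 2571 and 1943 units against 3932 to 6738 units (median 5282) in vehicle (2.13-fold lower, adjusted p = 1.60e-06). The groups did not overlap. VIM was below vehicle with both agents (log2 -1.09 ± 0.16) and lower still with RA alone (-2.19 ± 0.16), and the combined value was 1.10 ± 0.17 above RA alone (adjusted p = 5.85e-06). The call of VIM against vehicle was lost with the mean of all probe sets of a gene.

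Some genes went past both single treatments. They were chosen for being called in the same direction against vehicle, TNF alone and RA alone, so their order is a description and the 3 comparisons share the combined arrays. CCL20, CD14, CXCL8, G0S2, ITGA1, SLAMF7, TDO2 and ATP9A were the 8 rises ranked highest by the smallest of their 3 differences. TDO2, tryptophan 2,3-dioxygenase, had signals of 850.4, 798, 705, 490.5 and 388 units with both agents, 26.8 ± 14.3 with RA alone, 74.3 ± 18.5 with TNF alone and 17.2 ± 12.8 in vehicle (SD, n = 5 each and 6 for vehicle). SLAMF7, a receptor of the SLAM family, had 554, 527, 587, 296 and 258 units with both agents, 36.4 ± 24.2 with RA alone and 36.7 ± 18.8 with TNF alone (SD, n = 5 each), and neither single agent was called for it. ITGA1, an integrin subunit that binds collagen, had 287, 241, 277, 350.2 and 436 units, 53.7 ± 31.4 with RA alone and 8.36 ± 3.92 with TNF alone (SD, n = 5 each). For TDO2, SLAMF7 and ITGA1 no combined array overlapped a vehicle array. ATP9A, a phospholipid flippase, was 3.26 ± 0.77 above TNF alone and 2.79 ± 0.77 above RA alone (adjusted p = 0.00437 and 0.0113).

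MSRB3, CAV1, CTSG, KALRN, DEPTOR, DLL1, BMP8B and CCDC26 were the 8 falls of the same kind. BMP8B, a bone morphogenetic protein, had signals of 1074, 1135, 1071, 762 and 853 units with both agents and 3357 to 4258 units (median 3835) in vehicle (3.64-fold lower without overlap, log2 -1.86 ± 0.16, adjusted p = 1.98e-11). Neither single agent was called for it, at -0.20 ± 0.16 with RA and -0.03 ± 0.16 with TNF (adjusted p = 0.717 and 0.943), and 1 of its 3 probe sets was of opposite sign. DLL1, a Notch ligand, was -0.90 ± 0.43 with RA alone, -0.29 ± 0.43 with TNF alone and -2.62 ± 0.43 with both. CCDC26, a long noncoding RNA, was -0.81 ± 0.28, -0.75 ± 0.28 and -2.42 ± 0.28. CTSG, at 845 ± 80.9 units with both agents, had 4870 ± 942 with RA alone and 3894 ± 368 with TNF alone (SD, n = 5 each).

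**Figure D3:**
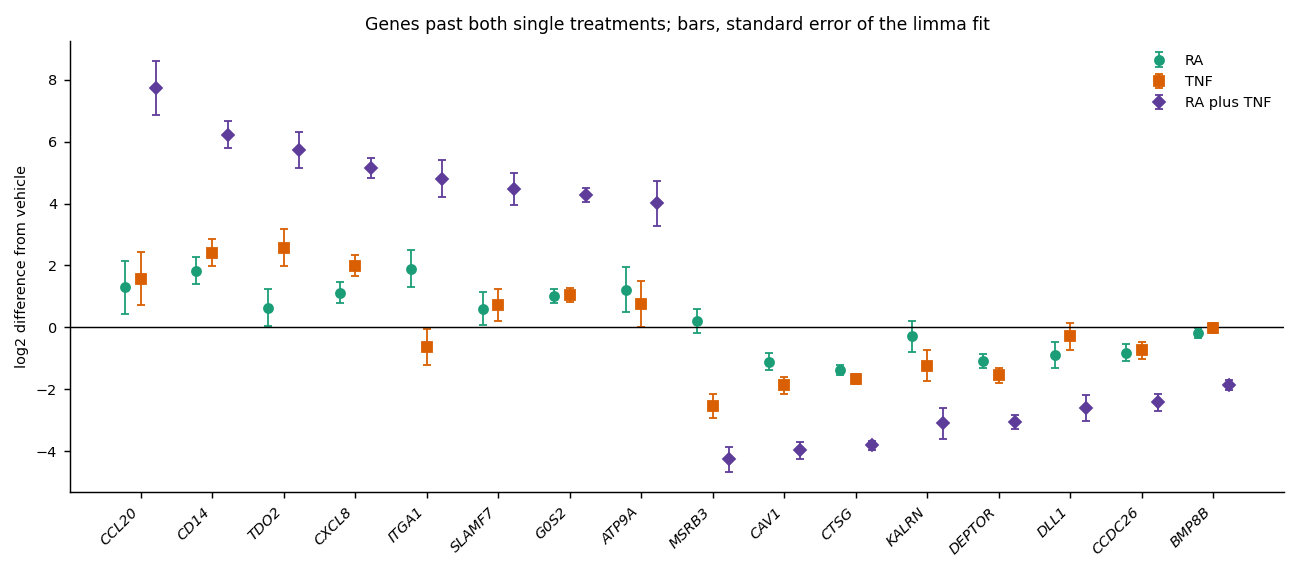
Log2 difference from vehicle with RA (circles), TNF (squares) and RA plus TNF (diamonds) for the 8 rises and 8 falls that were called in 1 direction against vehicle and against both single treatments, with standard errors of the limma fit as bars. The combined value lies past both single values for each gene because the genes were chosen that way; BMP8B, for example, was at -1.86 with both, -0.20 with RA and -0.03 with TNF.

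Transcription factors of myeloid cells moved in both directions, with 9 of 23 tested genes higher and 6 lower. Among the rises were JUNB (1.29 ± 0.20), CEBPB (0.93 ± 0.19), CEBPD (0.80 ± 0.16) and SPI1 (0.99 ± 0.22), of which SPI1 is the master factor PU.1 of the monocytic lineage (adjusted p = 6.85e-06, 0.00043, 0.000152 and 0.000943). BATF2 rose by 2.13 ± 0.41 (adjusted p = 0.000135). NFE2, a factor of megakaryocytic and erythroid cells, GFI1, a granulocytic repressor, MYC and ID2 fell, with log2 differences of -3.57 ± 0.66, -1.01 ± 0.16, -0.87 ± 0.15 and -0.76 ± 0.15 (adjusted p = 7.59e-05, 8.83e-06, 2.36e-05 and 0.000135). IRF5 and IRF8, regulators of myeloid maturation, were the other falls, and the call of IRF8 was lost without vehicle replicate 2 or 5 or without combined replicate 2, 4 or 5 (adjusted p = 0.0524 to 0.0698). NFE2 was -3.70 ± 0.66 with TNF alone and -0.03 ± 0.66 with RA alone. Of 15 genes that restrain cytokine signals 3 were higher and 3 lower. DUSP6, DUSP10 and DUSP4, phosphatases of the MAP kinases, rose by 2.37 ± 0.18, 1.05 ± 0.19 and 1.31 ± 0.27 (adjusted p = 1.22e-12, 4.33e-05 and 0.000368). CISH, a suppressor of cytokine signalling, was at -1.50 ± 0.34 (adjusted p = 0.001), and SOCS1 and SOCS3 were not called. SOCS2 and IRAK3 were the other falls, and CISH alone was called lower without vehicle replicate 2 or 5 and without combined replicate 3 or 4.

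Most genes of the cell cycle were not called, as was true of all genes tested. Of 36 tested members 2 were higher, 6 lower and 28 not called. Of all genes 11.7% were higher and 7.42% lower. The median log2 difference of the list was -0.10. TOP2A, topoisomerase II alpha, CENPE, a mitotic kinesin, BUB1, a checkpoint kinase, and AURKA, a mitotic kinase, were at -0.69 ± 0.17, -0.72 ± 0.18, -0.69 ± 0.18 and -0.57 ± 0.15 (adjusted p = 0.00224, 0.00268, 0.0039 and 0.00603), while MKI67 and PCNA were at -0.19 ± 0.16 and 0.31 ± 0.18 (adjusted p = 0.454 and 0.258). The count depended on the scaling and the array set: 14 members were lower after quantile normalization and 13 on the recovered signals, and 0 were lower in array set 1 alone but 15 in set 2 alone. None of the 36 was called for a difference between the sets. Leaving out 1 array gave 4 to 7 lower. RRM2 and CCNE2, the 2 rises, became 4 without vehicle replicate 2, 0 without vehicle replicate 1 or 3 or combined replicate 1 or 2, and 1 without vehicle replicate 4, 5 or 6 or combined replicate 3 or 5. Of 13 genes listed for arrest 5 were higher and 0 lower, among them CDKN1A, the inhibitor p21 (1.14 ± 0.17, adjusted p = 4.21e-06), BTG1 (0.94 ± 0.16, adjusted p = 1.88e-05) and GADD45A (0.72 ± 0.19, adjusted p = 0.00578), and RBL2 was called lower after quantile normalization and on the recovered signals. RB1, the retinoblastoma protein, was at 0.64 ± 0.18 (adjusted p = 0.00867), a call lost without combined replicate 5 (adjusted p = 0.0575). The other called member was CCND1, cyclin D1, which is not an inhibitor of the cycle, so the count is not one of arrest genes alone. Its log2 difference ran from 0.925 to 1.648 over the alternatives. The call of CCND1 was lost without the array set in the fit and in array set 1 alone.

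Of 22 genes of apoptosis and TNF receptor signalling 8 were higher and 2 lower. BCL2, which blocks mitochondrial apoptosis, had signals of 142, 159, 168, 138 and 217 units with both agents against 808 to 1354 units (median 1121) in vehicle. No arrays of the groups overlapped, and BCL2 was 6.24-fold lower (log2 -2.64 ± 0.18, adjusted p = 5.85e-14), with -1.02 ± 0.18 for RA alone and -1.28 ± 0.18 for TNF alone, but 1 of its 3 probe sets had the opposite sign. BIK, which promotes apoptosis, was also lower (-1.44 ± 0.18, adjusted p = 5.30e-08). BID, CASP1 and BAK1 rose by 1.22 ± 0.17, 0.98 ± 0.16 and 0.91 ± 0.19 (adjusted p = 7.78e-07, 2.03e-05 and 0.000328). MCL1, BCL2L1, CASP8 and CFLAR were not called, with log2 differences of 0.42, 0.22, 0.09 and 0.41.

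Respiratory chain, glycolysis and ribosome biogenesis genes were counted in the same way. Of 22 respiratory chain genes 3 were higher and 0 lower, a share near the background of 11.7%: CYC1 (0.62 ± 0.17), NDUFB8 (0.49 ± 0.16) and NDUFA9 (0.55 ± 0.18), while NDUFB3 was at 0.42 ± 0.16 and not called. The count was 7 without vehicle replicate 2, and CYC1 was the 1 left without vehicle replicate 4 or combined replicate 1 or 2. NDUFS3 was called lower after quantile normalization and on the recovered signals. Of 18 glycolytic genes 2 were higher and 0 lower, a share of rises that is also near the background of 11.7%. The 2 were HK1 and PKM (1.04 ± 0.17 and 1.21 ± 0.22, adjusted p = 1.06e-05 and 4.94e-05), and ENO1 and HK2 were at 0.40 ± 0.15 and 0.76 ± 0.29 and not called. The glycolytic rises were 4 without vehicle replicate 2 or combined replicate 5. HK3 was called lower without combined replicate 4, LDHB and PGAM1 after quantile normalization, and HK3 and SLC2A1 on the recovered signals. After quantile normalization ALDOA and ENO1 were also called higher. ENO1 was called higher too with the mean of all probe sets of a gene and in array set 1 alone, and HK2 in set 2 alone. Of 15 genes of ribosome biogenesis 4 were higher and 0 lower, NOP16 (0.74 ± 0.17), NOP2 (0.76 ± 0.18), RRP9 (0.92 ± 0.25) and NIP7 (0.52 ± 0.17), with 2 higher in array set 1 alone, 0 in set 2 alone and 7 without vehicle replicate 2. The call of NIP7 was lost without vehicle replicate 1, 3, 4 or 6 or without combined replicate 1 or 5 (adjusted p = 0.0516 to 0.146).

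The array sets were fitted separately to see which differences both carried. In set 1 alone 915 genes were higher and 433 lower, and in set 2 alone 1010 were higher and 809 lower. Of the 1348 genes called in set 1, 93.3% had the same sign in set 2 and 64.3% were also called there. Of the 1819 called in set 2, 91.3% had the same sign in set 1 and 47.7% were called. In both sets separately 867 genes were called in the same direction and 5 in opposite directions, ALDH1L2, EGR1, PHGDH, SLC38A1 and TMEM267, all lower in set 1 and higher in set 2. Across genes the log2 differences of the sets had a Pearson correlation of 0.595, a description over 12393 genes that are not independent.

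**Figure D4:**
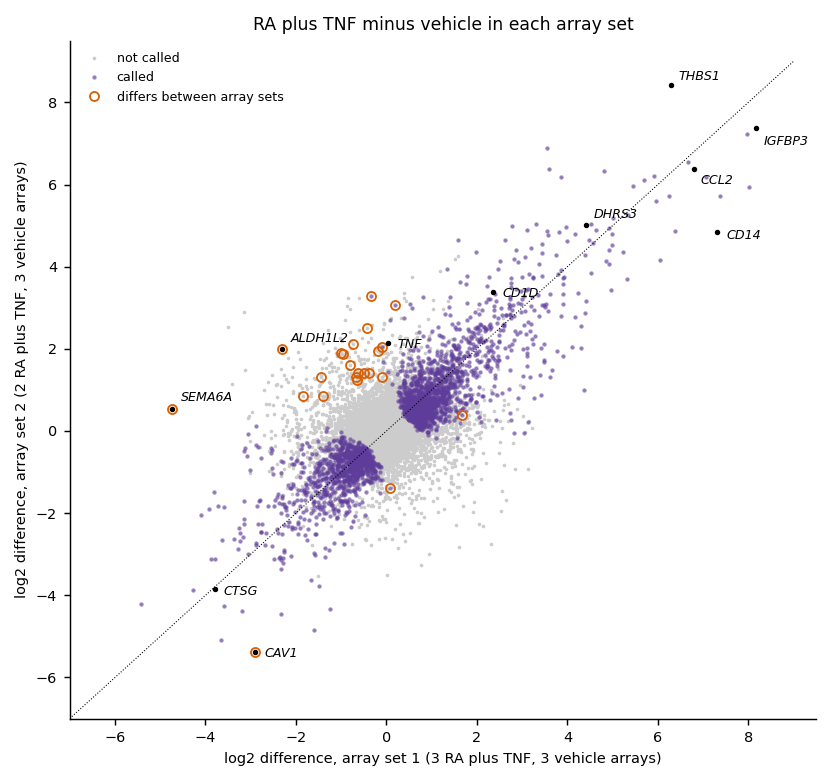
Log2 difference between RA plus TNF and vehicle in array set 1 (horizontal) and array set 2 (vertical) for the 12393 genes tested, with called genes in purple, genes whose effect differed between the sets circled in orange and the dotted line at equal values. CCL2, DHRS3 and CTSG lie near the line, and CAV1 and ALDH1L2 are among the 23 genes away from it.

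A test of the difference between the sets called 23 genes, or 0.186% of those tested. Of the 18 tested genes of the amino acid and unfolded protein response 7 were among them: ATF4, ASNS, PHGDH, PSAT1, CHAC1, SLC7A11 and SESN2. ATF4 is the transcription factor that cells use when amino acids run short, and ASNS, PHGDH and PSAT1 make asparagine and serine. ASNS had signals of 494, 514, 421, 1802 and 1362 units with both agents and of 2197, 493, 324, 291, 294 and 279 in the 6 vehicle arrays, of which the first 3 are set 1. The combined arrays of set 2 were high, and so was 1 vehicle array of set 1. The log2 difference was -0.43 ± 0.40 in set 1 and 2.50 ± 0.21 in set 2 (adjusted p of the difference = 0.0145). PHGDH had 324, 454, 401, 1430 and 1351 units with both agents and 3674, 639, 691, 528, 610.1 and 601 in vehicle, with the same vehicle array highest (-1.45 ± 0.37 and 1.32 ± 0.19, adjusted p = 0.00979). ALDH1L2, a mitochondrial folate enzyme, and SLC7A5, an amino acid transporter, both outside the list and named after their values were seen, differed by -2.32 ± 0.46 and -0.74 ± 0.33 in set 1 and by 1.99 ± 0.27 and 2.13 ± 0.24 in set 2.

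Over both sets together 6 of the 18 were called higher and 1 lower, with a median of 0.35, and HERPUD1, HSPA5 and SLC7A11 were the 3 higher without combined replicate 1. HERPUD1 and HSPA5, of the unfolded protein response, rose by 1.17 ± 0.23 and 0.69 ± 0.15, and VLDLR, a lipoprotein receptor, fell, with a log2 difference of -1.29 ± 0.18 (adjusted p = 0.000231, 0.000746 and 5.18e-07). In set 1 alone 2 were higher and 2 lower with a median of -0.38, and in set 2 alone 14 were higher and 1 lower with a median of 1.28. Without vehicle replicate 1, an alternative chosen after seeing the data, set 1 gave 3 higher and 1 lower with a median of 0.25, and 6 of the 7 members still differed between the sets, SESN2 being the exception. Of the 7, 4 still differed without combined replicate 3, 3 without combined replicate 4 and 0 without combined replicate 5, without the intensity trend or with the mean of all probe sets. Without vehicle replicate 1, 20 genes differed between the sets, of which 15 were among the 23. The count of differing genes was 115 after quantile normalization, 117 on the recovered signals and 1, CAV1, both without the intensity trend and with the mean of all probe sets. It was 4 without combined replicate 5 (ALDH1L2, CAV1, SLC38A1 and SLC7A5), 9 without combined replicate 4, 14 without combined replicate 3 or vehicle replicate 4, and 63 and 64 without vehicle replicates 2 and 3. TNF alone gave 1723 ± 438 units of ASNS and 1568 ± 154 of PHGDH, and RA alone 326 ± 165 and 388 ± 169 (SD, n = 5 each).

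**Figure D5:**
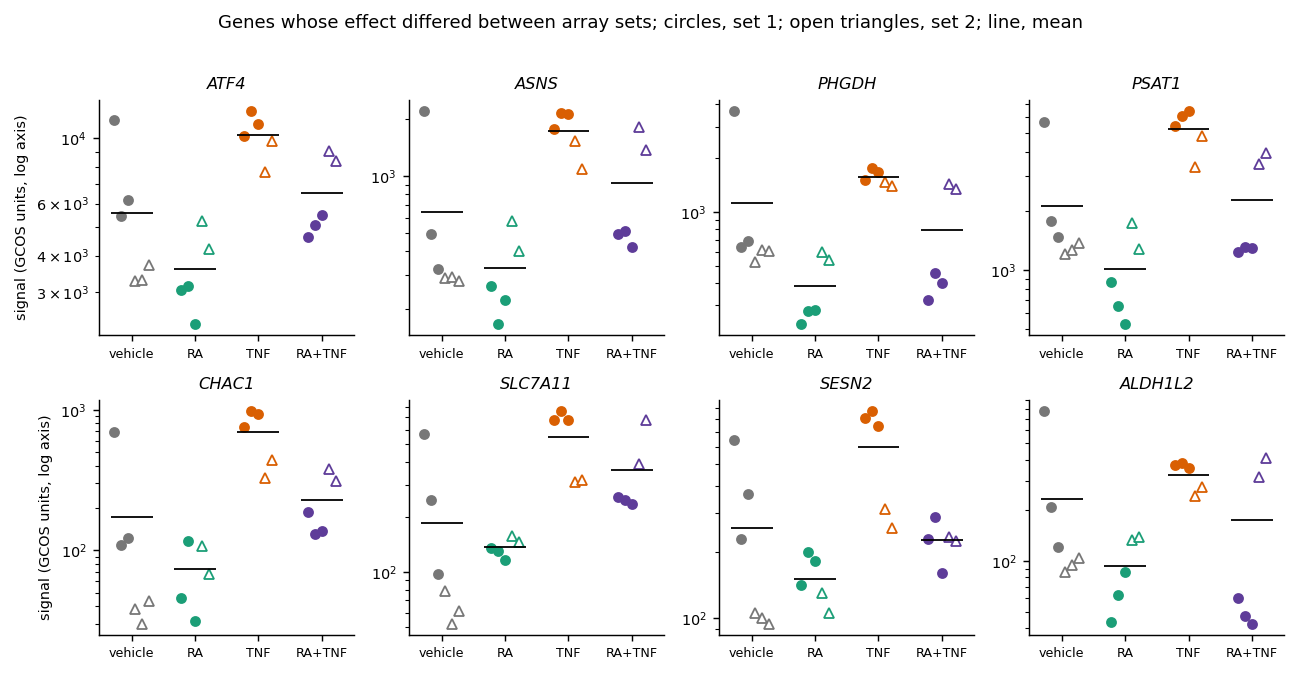
Signal of 8 genes whose RA plus TNF effect differed between the array sets, on each of the 21 arrays harvested at 40 h, in recovered GCOS signal units on a log axis, with circles for set 1, open triangles for set 2 and lines at group means. In PHGDH the highest vehicle array, 3674 units, is replicate 1 of set 1, and the combined arrays of set 2 (1430 and 1351 units) lie above those of set 1.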

How the data were processed

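Total RNA of THP-1 cells was hybridised to Affymetrix HG-U133 Plus 2.0 arrays, 1 array per well. The deposited log2 values derive from GCOS signals, per the submitters' processing notes, and in every column their median is 0. The GCOS version, its settings and the centring step are not given in the sources used here. Of 54675 probe sets, 41091 carried 1 gene symbol, 1801 several and 11721 none, with 62 control probe sets besides, in GEO's platform annotation, and 41037 were matched to the current gene table.

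Each of 19775 genes was represented by its brightest probe set over all arrays, and 12393 genes with a mean linear value of at least 0.8823, the median of all probe sets, were tested. The filter used the 21 arrays of vehicle, RA, TNF and the combination. These were fitted together in limma 3.58.1 (R 4.3.3) with the array set as a covariate and an intensity trend, and p-values were adjusted by Benjamini-Hochberg. The script was tested on simulated data.

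The members and lists were chosen with earlier results of these data known. Named were the 12 largest called rises and falls of the same sign in both sets and of at least 4 times the array median in the brighter group, up to 4 members per list with the smallest adjusted p, the 8 rises and 8 falls called against all 3 other groups, 14 set genes, and further list members where an account needed them, which were chosen after their values were seen. Alternatives were other scalings, floors, filters, probe set rules, covariates and single array sets, and each array left out. For the comparisons with single agents and between array sets they were chosen after seeing the data. The promoter search used RefSeq sequence (GRCh38.p14), where 10090 of the genes tested had an entry. The other arrays of the series entered only the choice of each gene's probe set, which was made over all 33 arrays.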

Additional observations from a re-analysis of the deposited data

Results flagged for a closer look

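Across 288 combinations of a named gene or quality measure with a group, 14 held 1 array far from the others of its group, measured by its gap to the nearest other array over the whole range. Chance gives about 1 in 20. The values are deposited log2 values relative to the array median.

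In vehicle, replicate 1 was high in WARS1 (6.221, others 3.751 to 4.505), DHCR7 (4.296, others 2.57 to 3.179) and BTG1 (6.029, others 4.888 to 5.161), and low in ADAMDEC1 (-4.17, others -0.699 to -0.094). It was also the highest vehicle array in the serine and asparagine genes described above. Replicate 3 was low in HSPA5 (6.436, others 7.045 to 7.226), replicate 4 was high in CCL4 (-0.305, others -2.964 to -2.013) and low in DHRS3 (-0.479, others 0.904 to 1.213), and replicate 6 was low in HMOX1 (-1.407, others 0.416 to 1.274).

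In the combined group, replicate 1 was high in CENPE (3.694, others 3.389 to 3.449) and low in GP1BA (-4.049, others 0.066 to 1.086). Replicate 2 was low in MLC1 (0.537, others 1.357 to 1.532) and in TXNRD1 (5.668, others 6.115 to 6.254). Replicate 3 was low in F13A1 (-3.058, others -0.536 to 0.094), and replicate 5 was high in BCL2 (3.011, others 2.129 to 2.248).

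The effect of RA plus TNF differed between the array sets, in a limma test of the difference itself, for 3 genes named by the rule. The set 2 effect minus the set 1 effect was -2.48 for CAV1, 2.896 for SLC7A11 and 2.146 for HK2 on the log2 scale.

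Among 4558 probe sets bright enough to test that carried no symbol or several, 229 were called higher (5.02%) and 280 lower (6.14%) in limma. No gene was named from them.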

How the results depend on the processing

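For the 196 genes followed, the direction and call of 196 were kept with a floor of 16 units, 195 on the recovered signals, 192 after quantile normalization, 192 with only the 11 arrays, 190 without the brightness filter, 188 with the replicate block, 187 without the intensity trend, 167 without the array set covariate, 162 in set 1 alone and 164 in set 2 alone. With the mean of all probe sets it was 158 of 183. Values that changed sign were BUB1 0.10 and TXNRD1 -0.32 with the mean of all probe sets, HK2 -0.19 and SLC3A2 -0.071 in set 1 alone, GP1BA 0.17 and COL1A1 0.26 in set 2 alone, and CD79A, which ran from -0.61 to 0.019 over arrays left out. The causes were not tested. Genes were followed for large differences or small adjusted p in the main fit, as set genes, or after their values were seen. Their counts therefore do not stand for all calls. Of the 2364 genes called in the main fit, 1286 were called in the same direction without the covariate. It was 1235 in set 1 alone, 1433 in set 2 alone and 2304 after quantile normalization.

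Against vehicle, 746 genes were higher and 540 lower without the covariate, 915 and 433 in set 1 alone, and lower genes numbered 1887 after quantile normalization, 1898 on the recovered signals and 603 with the mean of probe sets. Against TNF alone, 281 were higher and 116 lower without the covariate, lower genes were 767, 753 and, in set 1 alone, 199, and 362 were higher in set 2 alone. Against RA alone these were 505 and 287, 1179, 1210, 270 and 295. The set difference gave 115, 117, 1 with the mean of probe sets and 1 without the trend. Leaving out 1 array gave 1073 to 1753 higher and 704 to 1052 lower against vehicle, 412 to 628 and 238 to 368 against TNF alone, 691 to 1223 and 431 to 653 against RA alone, and 4 to 64 for the set difference.

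Same-numbered vehicle and combined arrays did not deviate together from the means of their group and array set (r = -0.0318 to 0.0212). The combined group has 2 arrays in set 2, whose deviations mirror each other. The check therefore cannot decide whether arrays of different groups shared a culture or day. With the replicate number as a block 1251 genes were higher and 840 lower than vehicle. Signals below the array median, 33.6 units in vehicle and 31.7 with both agents on average, lie close to the background, so differences there are estimates without a fold.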
